A study of Mus musculus with 11 samples.

Results

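The T helper 1 axis was followed here through 10 genes: Ifng, which encodes interferon gamma, the transcription factors Tbx21, Eomes, Runx3 and Stat4, the interleukin 12 receptor chains Il12rb1 and Il12rb2, the interleukin 18 receptor chains Il18r1 and Il18rap, and the chemokine receptor Cxcr3. They were chosen by symbol, with earlier results of these data known, so the share of them that was called is a description. Every probe set annotated to them was taken: 13 of the 45037 probe sets, for 10 of the 17097 genes measured. RNA from sorted T cells of male NOD mice, 16 weeks old, was measured on 11 arrays. NOD mice develop autoimmune inflammation of the lacrimal gland and are used as a model of Sjögren's disease. Live CD4+ TCRβ+ cells of digested lacrimal glands gave 3 subsets with 3 arrays each: LG_naive, negative for PD1 and ICOS, and LG_eTconv (effector conventional) and LG_eTreg (effector regulatory), both high for PD1 and ICOS. Total CD4+ T cells (Spl_CD4) and total CD8+ T cells (Spl_CD8) from the spleens of those mice gave 1 array each, so comparisons with the spleen have no replicate check. The labels print the same gate for both effector subsets, low for CD73 and CD200, and no treatment or induced mutation for any group. LG_naive was defined by the absence of 2 surface proteins alone. The labels do not say whether the arrays of a group came from separate mice or pools, so the p-values rest on a spread between samples of a group that may be technical.

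T helper 1 cells are CD4 T cells that make interferon gamma. In the textbook pathway, interleukin 12 signals through its receptor to STAT4, the T-box factor T-bet (encoded by Tbx21) switches on Ifng and Cxcr3, and interleukin 18 adds to interferon gamma output through a receptor that T-bet and STAT4 induce. Regulatory T cells in inflamed tissue can also carry T-bet and CXCR3, the receptor for interferon-induced chemokines, and interferon gamma is known in the inflamed salivary and lacrimal glands of Sjögren's disease.

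The 4 genes with the largest rises, Ifng, Tbx21, Il18rap and Cxcr3, are shown with the 250 bases before their start sites, because these are the sequences in front of the genes that moved most in both effector subsets. They come from the RefSeq promoter table, which gives the C57BL/6J reference genome and not NOD sequence. They are written 5′ to 3′ on the strand of the gene in lower case, and capitals mark matches to the motifs searched on both strands.
Ifng promoter, GRCm38.p6, chr10:118440796-118441045, plus strand: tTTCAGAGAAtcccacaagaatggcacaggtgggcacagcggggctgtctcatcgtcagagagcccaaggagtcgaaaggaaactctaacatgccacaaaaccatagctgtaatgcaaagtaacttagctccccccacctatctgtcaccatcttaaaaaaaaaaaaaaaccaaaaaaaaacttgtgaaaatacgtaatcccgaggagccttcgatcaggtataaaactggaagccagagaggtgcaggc
Tbx21 promoter, GRCm38.p6, chr11:97115332-97115581, minus strand: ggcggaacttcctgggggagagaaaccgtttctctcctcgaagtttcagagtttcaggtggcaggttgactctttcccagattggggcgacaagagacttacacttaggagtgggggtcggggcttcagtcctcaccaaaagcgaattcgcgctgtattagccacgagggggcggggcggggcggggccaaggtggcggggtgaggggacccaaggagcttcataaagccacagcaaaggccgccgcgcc
Il18rap promoter, GRCm38.p6, chr1:40515112-40515361, plus strand: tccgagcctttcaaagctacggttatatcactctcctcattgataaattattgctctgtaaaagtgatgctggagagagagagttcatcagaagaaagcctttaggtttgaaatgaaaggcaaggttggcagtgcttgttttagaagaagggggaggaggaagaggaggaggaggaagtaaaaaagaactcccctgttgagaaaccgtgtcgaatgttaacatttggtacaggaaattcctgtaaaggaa
Cxcr3 promoter, GRCm38.p6, chrX:101734148-101734397, minus strand: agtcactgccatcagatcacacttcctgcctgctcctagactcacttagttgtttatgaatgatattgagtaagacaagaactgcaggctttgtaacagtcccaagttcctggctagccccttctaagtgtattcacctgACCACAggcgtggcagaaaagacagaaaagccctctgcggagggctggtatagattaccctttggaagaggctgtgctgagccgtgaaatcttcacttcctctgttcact
The table held 13 promoters for 9 of the 10 genes, and Il12rb1 was not matched in it. Over the 300 bases from 250 before to 50 after the start, the T-box core GGTGTGA had a match in 0 of the 13 promoters, against 3.98% of the 32851 promoters in the table. The Runx motif TGTGGT matched in 4 of the 13, against 16.8% of all promoters. It matched at 110 bases before and 11 bases after the start of Cxcr3, 31 bases after the start of Il18rap, and also in a promoter each of Runx3 and Il18r1. The gamma-activated motif TTCNNNGAA matched in 3 of the 13, against 8.3% of all promoters: once in Ifng, 249 bases before the start, once in Il12rb2 and at 2 places in 1 promoter of Il18r1. The capitals in the Tbx21 and Il18rap lines are absent because no match lay before their starts. These matches describe letters in a window and were not set against binding. Il18r1 (chr1:40465552-40500854) and Il18rap (chr1:40515362-40551707), the paired chains of 1 receptor, are neighbours on chromosome 1 of GRCm38.p6.

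All levels are deposited log2 signals, with the base of the logarithm inferred, and levels of different genes are not compared because they come from different probe sets. An array's background limit was the highest of its nonspecific control probe sets, from 0.945 to 1.70, and 55.5% to 65.6% of genes lay above it. Gland arrays correlated at 0.980 to 0.991 within groups and 0.943 to 0.9755 between groups, over the 17097 genes with 1 probe set each. In control probe sets LG_naive 1 and LG_eTreg 3 were high for 18S RNA (6.15 and 6.76, others 3.57 to 5.34), and LG_eTconv 1 had the widest gap between the ends of actin RNA (3.35, others 1.53 to 2.86). Cd3e, Cd3g and Cd4 lay above the limit on all 11 arrays, with Cd4 at 2.47 on Spl_CD8 and 8.35 to 9.02 elsewhere. Foxp3, which defines regulatory T cells, lay at 8.13 to 8.21 on LG_eTreg, 3.61 to 4.85 on LG_eTconv and 2.86 to 4.95 on LG_naive. The labels and these markers pointed the same way.

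Both effector subsets carried far more Ifng, Tbx21, Il18rap and Cxcr3 signal than LG_naive, with rises of 3.34 to 4.93 log2 units. Il12rb1 and Il18r1 rose in both by less. Stat4 rose and Runx3 fell in LG_eTconv, and neither passed the test in LG_eTreg. Eomes fell in LG_eTconv. Il12rb2 stayed at the background level. In LG_eTconv minus LG_naive, 7 of the 10 genes were called higher (limma, Benjamini-Hochberg adjusted p under 0.05 over all genes), where 6.45% of all genes were, and 2 were called lower, against 7.02%. In LG_eTreg minus LG_naive, 6 were higher, against 6.2%, and 0 were lower, against 5.47%. Eomes missed that threshold in LG_eTreg, at -1.49 with adjusted p 0.0559. The median log2 difference of the 10 genes was 1.08 and 1.33 in these comparisons, beside -0.03 and -0.02 over all genes. Both comparisons use the same LG_naive arrays. In bulk RNA, fewer cells that express a gene and less RNA per cell cannot be told apart.

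**Figure D1:**
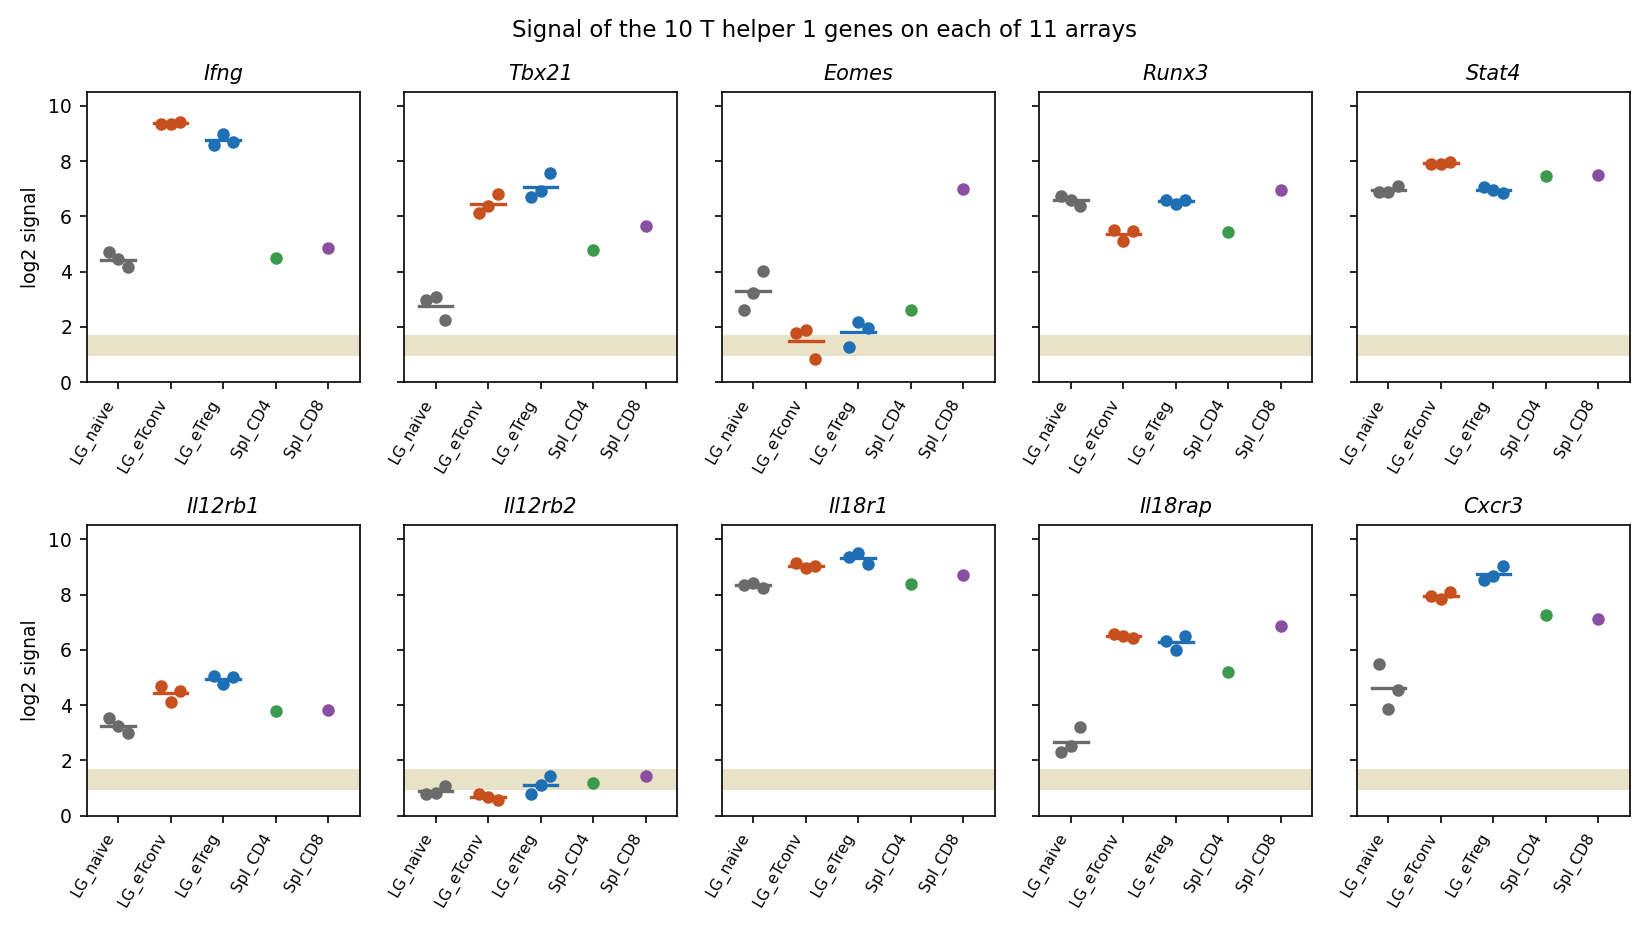
Log2 signal (y axis) of the 10 genes on each of the 11 arrays (points), by group (x axis), with the mean of each group of 3 as a line and the range of the background limits, 0.945 to 1.70, as a shaded band. Ifng, Tbx21, Il18rap and Cxcr3 lie high on all effector arrays, Runx3 is low on LG_eTconv only among gland groups, and Il12rb2 lies in or under the band.

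Ifng (chr10:118441046-118445894), the cytokine of the axis, read 4.70, 4.45 and 4.17 on the LG_naive arrays. It read 9.34, 9.35 and 9.42 on LG_eTconv and 8.57, 8.97 and 8.71 on LG_eTreg. The spleen arrays read 4.49 (Spl_CD4) and 4.86 (Spl_CD8). All 6 effector arrays were high, and LG_naive lay around the level of spleen CD4 cells, with Spl_CD4 inside its range. The rise over LG_naive was 4.93 ± 0.16 (SE) in LG_eTconv, 30.5-fold, with adjusted p 8.34e-07. It was 4.31 in LG_eTreg, 19.8-fold, with adjusted p 2.99e-06. LG_eTreg lay 0.62 log2 units under LG_eTconv (95% interval of the difference -0.98 to -0.26), with no overlap between the arrays. That difference missed the threshold at adjusted p 0.0627. It was called under 4 of the 20 alternative settings, an intensity trend (0.0392), repeated quantile normalization (0.0292), and fits without LG_naive 1 (0.0416) or LG_naive 3 (0.0469), in a range of 0.0292 to 0.183.

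Tbx21 (chr11:97098007-97115331) encodes T-bet, the factor that specifies the T helper 1 fate. Its signal was 2.97, 3.07 and 2.23 on LG_naive, 6.13, 6.39 and 6.81 on LG_eTconv, and 6.70, 6.94 and 7.57 on LG_eTreg. Spl_CD4 read 4.78 and Spl_CD8 5.64. LG_naive was therefore the lowest group, under both spleen arrays, and the effector subsets the highest, overlapping each other. Tbx21 rose by 3.68 ± 0.30 (SE) in LG_eTconv (12.9-fold, adjusted p 8.77e-05) and by 4.31 in LG_eTreg (19.8-fold, adjusted p 4.86e-05). The subsets differed by 0.62 in favour of LG_eTreg, with an interval of -0.07 to 1.32 and adjusted p 0.374.

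Eomes (chr9:118478186-118486132), the other T-box factor of lymphocytes and best known in CD8 T cells and natural killer cells, went the other way. Its brighter probe set read 2.62, 3.24 and 4.02 on LG_naive, 1.78, 1.88 and 0.85 on LG_eTconv, and 1.26, 2.18 and 1.96 on LG_eTreg. On 2 of the 3 arrays of each effector subset it lay above the background limit. Spl_CD4 read 2.62 and Spl_CD8 6.98, so the CD8 array stood far above every CD4 array. Eomes fell by 1.79 ± 0.42 (SE) in LG_eTconv, with adjusted p 0.0234. The call was lost without LG_eTconv 3 (0.0733), LG_naive 2 (0.0615) or LG_naive 3 (0.0695). In LG_eTreg the difference was -1.49 with adjusted p 0.0559, and it was called under 5 of the 20 settings, in a range of 0.0165 to 0.16: the intensity trend, values set to the background limit, the filter on dim genes, and fits without LG_eTconv 3 or LG_naive 1. The dimmer probe set gave -1.32 (adjusted p over all probe sets 0.248) and -0.99 (0.439), with LG_naive spread from 1.20 to 3.83.

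Tyrobp and Fcer1g, markers that natural killer cells share with other cells, were also lower in the effectors. Tyrobp, a signalling adaptor of natural killer and myeloid cells, read 7.81 to 8.33 on LG_naive, 4.15 to 4.72 on LG_eTconv and 4.22 to 4.36 on LG_eTreg, and fell by 3.58 and 3.75. Of the 8 markers measured for natural killer cells and innate lymphoid cells type 1, 2 were lower in each effector subset, Tyrobp and Fcer1g, both also expressed by myeloid cells, and 0 were higher. Of all genes, 7.02% were lower in LG_eTconv and 5.47% in LG_eTreg. Fcer1g fell by 2.37 (adjusted p 0.00512) in LG_eTconv and 1.76 (adjusted p 0.0256) in LG_eTreg. Of the granule genes in this list, Prf1 was not called in any comparison. Gzma, with means of 1.84 on LG_naive, 0.81 on LG_eTconv and 3.57 on LG_eTreg, was not called against LG_naive. It was 2.76 higher in LG_eTreg than in LG_eTconv (adjusted p 0.0389). The summed level was 8.13 to 8.59 on LG_naive, 5.81 to 5.97 on LG_eTconv and 6.08 to 6.54 on LG_eTreg, with Spl_CD4 at 7.51 and Spl_CD8 at 8.85. On LG_naive most of this sum came from Tyrobp. Ncr1 and Klra8 were at or below the background limit on all 11 arrays, spleen included, so no array shows that these probe sets detect their genes. The part of these cells in the Eomes difference was not tested.

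Runx3 (chr4:135120645-135177990) encodes a Runt factor that partners T-bet at Ifng and represses Cd4 in the CD8 lineage. Its bright probe set read 6.73, 6.61 and 6.39 on LG_naive, 5.51, 5.12 and 5.48 on LG_eTconv, and 6.58, 6.46 and 6.59 on LG_eTreg. Spl_CD4 read 5.44 and Spl_CD8 6.96. LG_eTconv stood alone among the gland subsets, at the level of spleen CD4 cells, while LG_naive and LG_eTreg overlapped. Runx3 fell by 1.21 ± 0.14 (SE) in LG_eTconv (adjusted p 0.000593). The LG_eTreg difference was -0.03, with an interval of -0.35 to 0.29 (adjusted p 0.935). The other Runx3 probe set lay above background on 1 of the 11 arrays and was not called, and the mean of both probe sets gave a fall of 0.62 in LG_eTconv, also called.

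Stat4 (chr1:51987106-52107189), the transducer of the interleukin 12 signal, read 6.86, 6.87 and 7.10 on LG_naive and 7.88, 7.90 and 7.98 on LG_eTconv. On LG_eTreg it read 7.06, 6.96 and 6.85, and on the spleen arrays 7.46 (CD4) and 7.51 (CD8). LG_eTconv was highest without overlap, and LG_eTreg overlapped LG_naive. Stat4 rose by 0.97 ± 0.11 (SE) in LG_eTconv, 1.96-fold, with adjusted p 0.000468. In LG_eTreg the difference was 0.01, with an interval of -0.24 to 0.26 and adjusted p 0.974.

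Of the interleukin 12 receptor, Il12rb1 (chr8:70808360-70823542), the chain that also serves another cytokine receptor, read 3.55, 3.25 and 2.98 on LG_naive, 4.70, 4.10 and 4.51 on LG_eTconv, and 5.04, 4.75 and 5.03 on LG_eTreg. The spleen arrays read 3.78 and 3.81, between LG_naive and the effectors. The rise was 1.18 in LG_eTconv (2.27-fold, adjusted p 0.00446) and 1.68 in LG_eTreg (3.21-fold, adjusted p 0.000763). Il12rb2 (chr6:67285986-67376293), the signalling chain that binds STAT4 and is induced in T helper 1 cells, gave no measurable level in most samples. Its single probe set lay above the background limit on 2 of the 11 arrays, LG_eTreg 2 (1.10) and Spl_CD8 (1.43), and no fold is given. A difference in Il12rb2 was not detectable with this probe set, which does not show that the chain is absent.

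The interleukin 18 receptor chains both rose. Il18r1, the binding chain, read 8.35, 8.41 and 8.25 on LG_naive, 9.13, 8.95 and 9.04 on LG_eTconv, and 9.34, 9.51 and 9.11 on LG_eTreg, with 8.40 on Spl_CD4 and 8.70 on Spl_CD8. The naive arrays were the lowest of the gland groups without overlap, with Spl_CD4 inside their range, and the effectors overlapped each other. The rises were 0.70 (adjusted p 0.00593) and 0.98 (adjusted p 0.00116), or 1.63-fold and 1.97-fold. Il18rap, the accessory chain needed for signalling, read 2.30, 2.53 and 3.19 on LG_naive, 6.58, 6.50 and 6.42 on LG_eTconv, and 6.33, 5.98 and 6.51 on LG_eTreg. Spl_CD4 read 5.20 and Spl_CD8 6.86, so the CD8 array was higher than every effector array, and LG_naive was the lowest group. Il18rap rose by 3.83 (14.2-fold, adjusted p 1.54e-05) and by 3.60 (12.1-fold, adjusted p 2.97e-05). Its dimmer probe set was at or below background on all 3 naive arrays and read 2.15 to 3.43 on LG_eTconv and 3.02 to 4.25 on LG_eTreg. It was at least 2.52-fold and at least 4.35-fold higher there (adjusted p over all probe sets 0.0203 and 0.00427). The step in Il18rap was thus larger than that in Il18r1 on the log2 scale, each within its own probe set.

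Cxcr3 (chrX:101731535-101734147), the receptor for CXCL9 and CXCL10, read 5.49, 3.85 and 4.54 on LG_naive, the widest range among the naive values of the probe sets that stood for the 10 genes. It read 7.93, 7.85 and 8.10 on LG_eTconv and 8.52, 8.67 and 9.05 on LG_eTreg, with 7.26 on Spl_CD4 and 7.10 on Spl_CD8. The 3 gland groups did not overlap, and LG_naive lay under both spleen arrays. Cxcr3 rose by 3.34 ± 0.36 (SE) in LG_eTconv (10.1-fold, adjusted p 0.000407) and by 4.12 in LG_eTreg (17.4-fold, adjusted p 0.000147). LG_eTreg exceeded LG_eTconv by 0.78, with an interval of -0.04 to 1.61 and adjusted p 0.34.

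**Figure D2:**
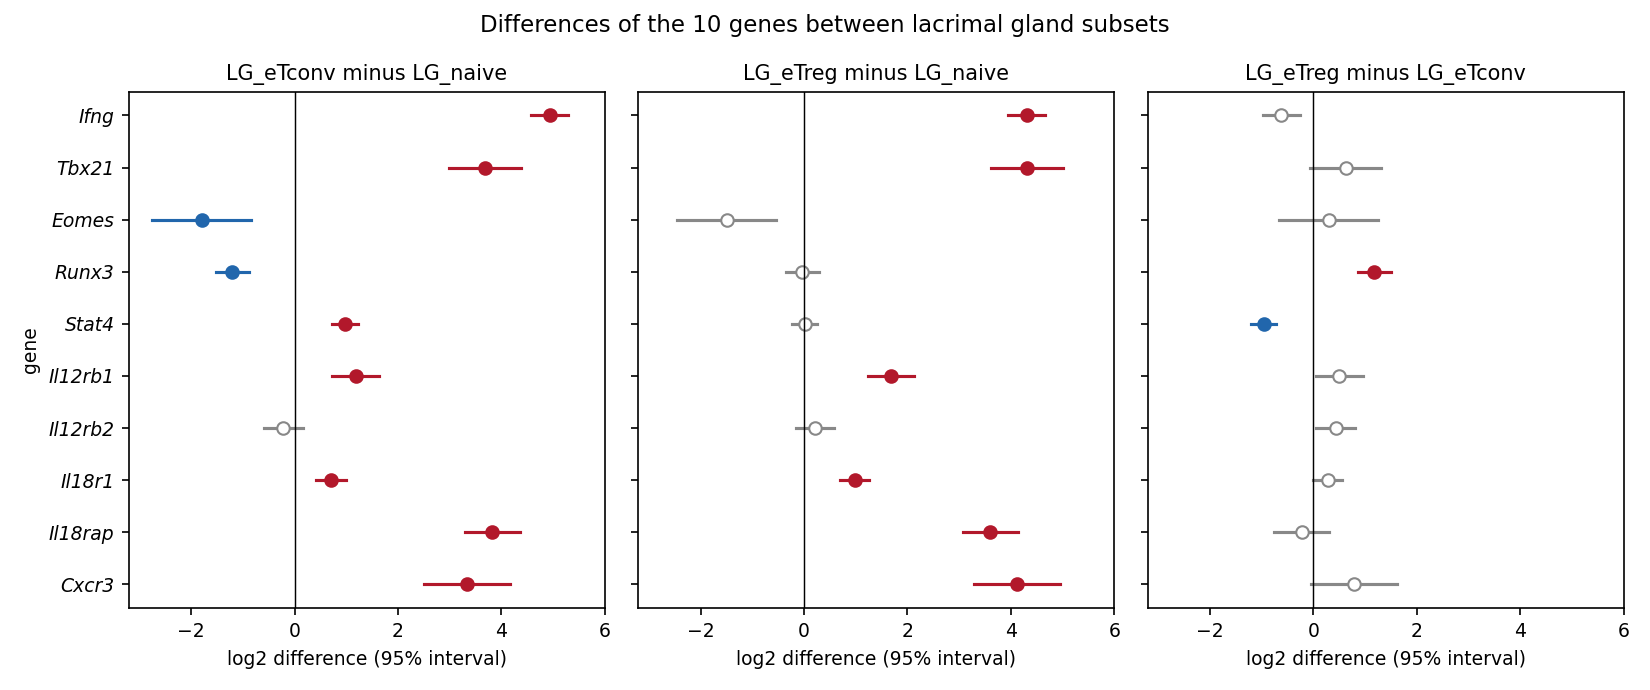
Log2 difference (x axis) of each of the 10 genes (y axis) in the 3 comparisons between gland subsets, as the limma estimate (point) with its 95% interval (line). Filled red points were called higher, filled blue points lower, and open grey points were not called. In LG_eTreg minus LG_eTconv, Runx3 (1.17) and Stat4 (-0.96) are the filled points.

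Regulatory and conventional effectors were then set against each other directly. Here 1 of the 10 genes was called higher in LG_eTreg, where 2.94% of all genes were, and 1 lower, against 2.76%. Runx3 was 1.17 log2 units higher in LG_eTreg (2.25-fold, adjusted p 0.00157), with all 3 arrays above those of LG_eTconv. Stat4 was 0.96 lower (1.95-fold, adjusted p 0.00114), again with no overlap. The median difference of the 10 genes was 0.36, beside 0.01 over all genes. Neither Tbx21, Il12rb1, Il18r1, Il18rap nor Cxcr3 passed the test. The widest of their intervals, that of Cxcr3, reaches 1.61, so these data do not show that the subsets carry the same amounts. With every probe set tested on its own, 9.11%, 7.6% and 3.46% of all probe sets were called in the 3 comparisons in turn, and the probe sets that stood for the 10 genes kept their calls.

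The gland subsets were also set against the single spleen CD4 array. A gene was counted where the difference was at least 1 log2 unit and all 3 gland arrays lay on 1 side of Spl_CD4, with no test. LG_naive had 3 genes lower, Cxcr3 (-2.63), Il18rap (-2.52) and Tbx21 (-2.02), and 1 higher, Runx3 (1.14), where 9.24% of all genes were past the fold in either direction. LG_eTconv had 3 genes higher, Ifng (4.88), Tbx21 (1.67) and Il18rap (1.30), and 1 lower, Eomes (-1.12), against 13.2%. LG_eTreg had 6 genes higher, Ifng, Tbx21, Runx3, Il12rb1, Il18rap and Cxcr3, and 0 lower, against 12.4%. These comparisons share the Spl_CD4 array. Between the spleen arrays, Spl_CD8 had 3 genes higher, Eomes (4.35), Il18rap (1.66) and Runx3 (1.52), against 8.25%, and 0 lower. Spl_CD4 is total CD4 cells and holds activated and regulatory cells as well, with Foxp3 at 5.77. B cell markers were higher on the spleen arrays: the summed level of the 4 measured was 8.10 on Spl_CD4 and 8.78 on Spl_CD8, against 3.59 to 5.38 on the gland arrays. Of these, Ms4a1, the CD20 gene, read 6.97 and 7.58 on the spleen arrays. Pax5, a B cell factor, was at or below the background limit on all 11 arrays, so no array shows that its probe set detects the gene. The part of B cells in the spleen differences was not tested.

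The order of the groups thus differed between the genes. For Ifng it ran LG_eTconv, LG_eTreg, Spl_CD8, Spl_CD4, LG_naive, and the last pair could not be separated. For Tbx21, Il12rb1 and Il18r1 it ran LG_eTreg, LG_eTconv, Spl_CD8, Spl_CD4, LG_naive, with the effectors overlapping for Tbx21 and Il18r1 and separated by 0.05 for Il12rb1. For Il18r1 Spl_CD4 lay inside the LG_naive range, so that pair could not be separated. Cxcr3 had the same order but for the spleen arrays, 0.16 apart. Il18rap was led by Spl_CD8, ahead of LG_eTconv and LG_eTreg, which overlapped. Eomes and Runx3 were led by Spl_CD8 and then, by mean, LG_naive, with the LG_eTconv mean last in both. For Eomes LG_naive overlapped Spl_CD4, and LG_eTreg overlapped LG_eTconv. For Runx3 LG_naive overlapped LG_eTreg, and Spl_CD4 lay inside the LG_eTconv range. Stat4 was led by LG_eTconv, with LG_eTreg and LG_naive overlapping at the bottom.

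Around these genes, 26 other T helper 1 signalling genes and regulators were measured. In LG_eTconv 5 were called higher and 4 lower, in LG_eTreg 5 higher and 2 lower, and between the effectors 3 higher and 3 lower in LG_eTreg, with medians of 0.02, -0.03 and 0.02. Over all genes, the shares higher and lower were 6.45% and 7.02%, 6.2% and 5.47%, and 2.94% and 2.76% in these comparisons. The ligand-binding chain of the interferon gamma receptor, Ifngr1, read 7.27, 7.03 and 7.27 on LG_naive, 3.98, 4.14 and 3.48 on LG_eTconv, and 7.54, 7.76 and 7.74 on LG_eTreg, with 5.99 on Spl_CD4 and 6.09 on Spl_CD8. LG_eTconv was the lowest group, under both spleen arrays, and LG_eTreg the highest. Ifngr1 fell by 3.32 ± 0.17 (SE) in LG_eTconv (adjusted p 7.58e-06) and was 3.81 higher in LG_eTreg than in LG_eTconv (14.1-fold, adjusted p 8.8e-06). The LG_eTreg difference from LG_naive was 0.49 (adjusted p 0.125). Markers of gland epithelium differed as well: of 6 measured, 3 were lower in LG_eTconv and 2 in LG_eTreg than in LG_naive, and 2 were higher and 0 lower in LG_eTreg than in LG_eTconv. Their summed level was 7.38 to 8.65 on LG_naive, 5.85 to 5.87 on LG_eTconv and 6.92 to 7.54 on LG_eTreg. Epcam, an epithelial adhesion gene, read 5.49 to 5.96, 3.04 to 3.70 and 5.68 to 6.85 on these groups in turn, and the secretory gene Scgb2b27 was at or below the background limit on all gland arrays. The part of epithelial cells in the Ifngr1 difference was not tested. Ifngr2, the signalling chain, fell in both, by 1.37 (adjusted p 0.00733) and 1.44 (adjusted p 0.00661), to levels near background. Its other probe set, the brighter on LG_naive at 4.32, was at or below background on all 6 effector arrays. It was at least 7.89-fold lower in LG_eTconv and at least 8.56-fold lower in LG_eTreg (adjusted p over all probe sets 0.000205 and 0.000313).

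**Figure D3:**
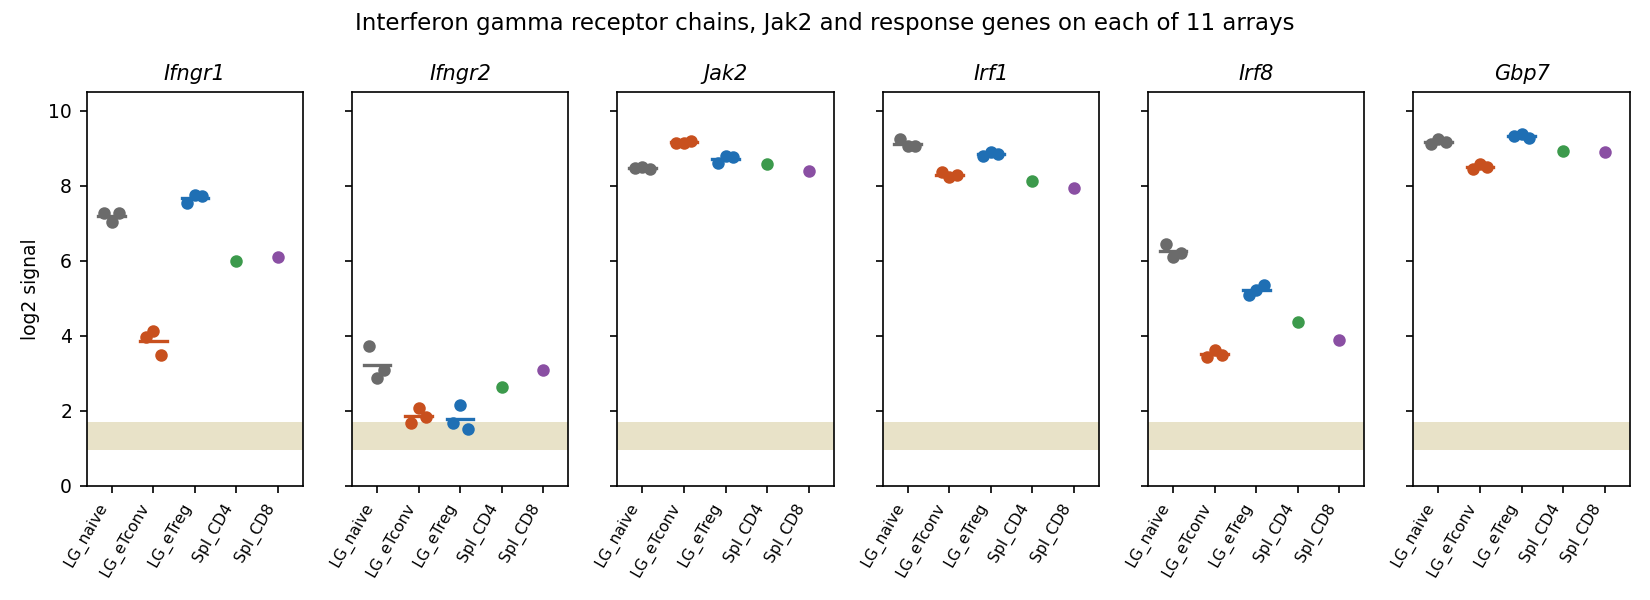
Log2 signal (y axis) of the interferon gamma receptor chains Ifngr1 and Ifngr2, the kinase Jak2 and the response genes Irf1, Irf8 and Gbp7 on each of the 11 arrays (points) by group (x axis), with group means as lines and the range of background limits shaded. Ifngr1 lies at 3.48 to 4.14 on LG_eTconv and at 7.54 to 7.76 on LG_eTreg, and Irf8 and Gbp7 are lowest on LG_eTconv among the gland groups.

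Jak2, the kinase bound to IFNGR2 and to the interleukin 12 receptor, rose by 0.69 in LG_eTconv (adjusted p 0.00137). It was 0.44 lower in LG_eTreg than in LG_eTconv (adjusted p 0.0283), a call lost under 13 of the 20 settings (highest adjusted p 0.136). The dimmer Jak2 probe set gave 1.64 in LG_eTconv (adjusted p over all probe sets 0.000341) and -1.06 in LG_eTreg minus LG_eTconv (0.00824). Its difference of 0.58 between LG_eTreg and LG_naive was not called (0.0603). Tyk2, the partner kinase at Il12rb1, rose by 0.72 in LG_eTreg (adjusted p 0.0201), a call lost without LG_eTreg 1 or LG_naive 3 (0.0706 each). Bhlhe40, a repressor of Il10 that sustains T helper 1 cytokines, rose by 2.88 and 2.14 in the effector subsets and was 0.75 lower in LG_eTreg than in LG_eTconv (adjusted p 0.0329, lost without any 1 of the 6 effector arrays, highest over all settings 0.199). Hopx, a cofactor of long-lived T helper 1 cells, rose by 3.97 in LG_eTreg (adjusted p 0.000478) and was 2.79 higher there than in LG_eTconv (adjusted p 0.00597). Txk, a Tec family kinase, fell by 3.07 and 2.56. Zeb2, a target of T-bet in CD8 cells, was at or below background on every LG_eTreg array and at least 1.75-fold lower there than in LG_eTconv (adjusted p 0.0309, lost under 9 of the 20 settings, highest 0.115). The dimmer Zeb2 probe sets were not called. Runx1 and its partner subunit Cbfb, which also binds RUNX3, were not called in the 3 comparisons, with differences of -0.26 to 0.61 and -0.10 to 0.07. The count of 6 calls between the effectors was 3 without LG_eTconv 1, LG_eTconv 2 or LG_eTreg 3 and 2 without LG_naive 1, LG_eTconv 1 and LG_eTreg 3 together.

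The list of 17 other T helper 1 effector molecules split between the subsets. Against LG_naive, 8 rose and 3 fell in LG_eTconv and 6 rose and 2 fell in LG_eTreg, with medians of 0.86 and 0.36. Between the effectors 5 were higher and 6 lower in LG_eTreg. Of all genes, 6.45% rose and 7.02% fell in LG_eTconv, and 6.2% rose and 5.47% fell in LG_eTreg. Between the effectors 2.94% of all genes were higher and 2.76% lower in LG_eTreg. Il2, the growth factor cytokine, read 6.52, 6.53 and 6.53 on LG_eTconv and between 0.69 and 2.40 on the other gland arrays. It rose by 5.05 in LG_eTconv (adjusted p 7.54e-05) and was 5.07 lower in LG_eTreg (adjusted p 0.000156). Il2 lay above the background limit on 1 of the 3 LG_naive arrays and 2 of the 3 LG_eTreg arrays. Both differences thus rest partly on values at background. The chemokine gene Xcl1 rose by 4.77 in LG_eTconv and was 3.67 lower in LG_eTreg (adjusted p 0.000396). Lta (-2.13), Tnf (-0.78) and Fasl were also lower in LG_eTreg than in LG_eTconv. Csf2 was lower too (-1.47, adjusted p 0.0489), with a LG_eTreg mean of 0.53, under the lowest background limit.

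Nkg7, a granule protein of cytotoxic and T helper 1 cells, read 4.10 to 5.02 on LG_naive, 8.62 to 8.85 on LG_eTconv and 8.98 to 9.35 on LG_eTreg, and rose by 4.32 and 4.79. The chemokine receptor gene Cxcr6 rose by 2.24 and 4.43 and was 2.19 higher in LG_eTreg (adjusted p 0.0045). Its dimmer probe set was not called in LG_eTconv (1.03, adjusted p over all probe sets 0.0622). That probe set was called higher in LG_eTreg, by 3.89 over LG_naive and 2.85 over LG_eTconv. Havcr2, which encodes the inhibitory receptor TIM-3, was 3.15 higher in LG_eTreg than in LG_eTconv, the chemokine gene Ccl5 2.91 higher and the chemokine gene Ccl4 1.31 higher (adjusted p 0.0137). The lectin receptor gene Klrg1 was at or below background on every LG_eTconv array and at least 4.62-fold higher in LG_eTreg (adjusted p 8.8e-06). Klrd1, the CD94 receptor of natural killer cells, fell by 2.47 and 3.56, from 6.71 to 6.94 on LG_naive, beside the fall of Tyrobp given above. Cd8a read 6.16 to 6.83 on LG_eTconv against 4.51 to 5.19 on LG_naive (a rise of 1.56, adjusted p 0.00161), while Cd8b1 lay at 1.18 to 1.77 on LG_eTconv and at 6.43 on Spl_CD8. The part of CD8 cells in the Ifng, Il2 and Xcl1 levels was not tested.

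**Figure D4:**
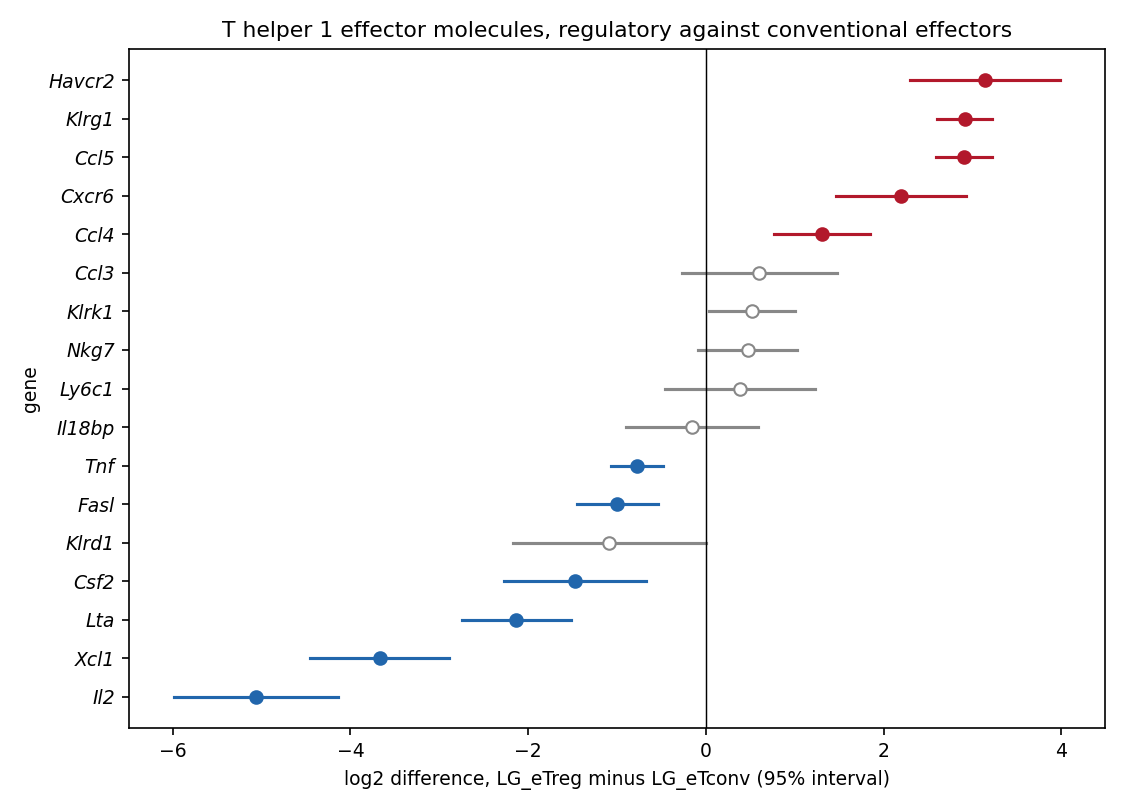
Log2 difference (x axis) between LG_eTreg and LG_eTconv for the 17 other T helper 1 effector molecules (y axis), as the limma estimate with its 95% interval, sorted by size. Filled red points were called higher and filled blue points lower in LG_eTreg, and open grey points were not called. The 6 blue genes run from Il2 (-5.07) to Tnf (-0.78), and the 5 red genes include Havcr2 (3.15) and Cxcr6 (2.19). For Klrg1 the plotted estimate is not a measured fold, since LG_eTconv lay at background.

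Of 20 interferon gamma response genes measured, LG_eTconv had 1 higher and 9 lower than LG_naive, with a median of -0.58. LG_eTreg had 2 higher and 3 lower, with a median of -0.04, and 4 were higher and 0 lower in LG_eTreg than in LG_eTconv. Without LG_eTreg 1 the last count of calls was 7. Over all genes 6.45% were higher and 7.02% lower in LG_eTconv, and 6.2% and 5.47% in LG_eTreg. Between the effectors the shares were 2.94% and 2.76%. Cxcl10, a ligand of CXCR3, rose in both subsets, by 2.83 (adjusted p 0.000154) and 3.02 (adjusted p 0.000129). It read 4.38 to 5.27 on LG_naive and 7.58 to 8.21 on the effector arrays, against 2.72 on Spl_CD4 and 1.41 on Spl_CD8. The myeloid and lymphoid factor gene Irf8 fell by 2.74 and 1.03 in the 2 subsets, and was 1.71 higher in LG_eTreg than in LG_eTconv (adjusted p 0.0001). Its dimmer probe set was lower in LG_eTconv (-1.935, adjusted p over all probe sets 0.00936). With that probe set the LG_eTreg differences were not called, at -0.88 from LG_naive (0.207) and 1.05 from LG_eTconv (0.195). Irf1, an interferon-induced factor that promotes T helper 1 genes, fell by 0.84 in LG_eTconv (adjusted p 0.000589) and was 0.56 higher in LG_eTreg (adjusted p 0.0111). The latter call was lost with values set to the background limit (0.051) and without LG_naive 1, LG_eTconv 1 and LG_eTreg 3 together (0.0601).

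The guanylate-binding protein genes differed among themselves. Gbp2 fell in both subsets, by 1.35 and 1.09. Gbp3 rose by 1.14 in LG_eTreg and fell by 0.64 in LG_eTconv (adjusted p 0.0407), the latter lost under 10 of the 20 settings (highest 0.159), and was 1.79 higher in LG_eTreg than in LG_eTconv (adjusted p 0.000468). Gbp7 was 0.81 higher in LG_eTreg than in LG_eTconv. Cxcl9, the other CXCR3 ligand, fell by 1.98 in LG_eTconv (adjusted p 0.0393), a call lost under 8 of the 20 settings (highest 0.123). Myeloid markers moved with the falls from LG_naive, where 7.02% of all genes were lower in LG_eTconv and 5.47% in LG_eTreg. Of 7 monocyte and macrophage markers 5 were lower in LG_eTconv and 4 in LG_eTreg, and of 3 dendritic cell markers 2 were lower in each. The summed levels of these lists, in that order, were 7.65 to 8.46 and 4.99 to 5.23 on LG_naive, 6.40 to 6.65 and 2.86 to 3.61 on LG_eTconv, and 6.47 to 6.64 and 3.06 to 3.66 on LG_eTreg. Csf1r and Itgam, of the monocyte and macrophage list, were at or below the background limit on all gland arrays. Itgam was so on the spleen arrays too, so no array shows that its probe set detects the gene. The part of myeloid cells in these falls was not tested.

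Factors of other T helper fates rose beside Tbx21. Of 7 measured, 5 were higher in LG_eTconv and 4 in LG_eTreg, with 0 lower in both. Over all genes 6.45% and 6.2% were higher, and 7.02% and 5.47% lower. Gata3, the T helper 2 factor, read 3.91 to 5.11 on LG_naive, 6.44 to 6.76 on LG_eTconv and 4.83 to 5.78 on LG_eTreg, and rose by 1.86 in LG_eTconv (adjusted p 0.00926). Maf, which drives Il10 and Il21, rose by 3.30 and 3.66, and Ahr, a ligand-activated factor, by 3.19 and 3.67. The other Ahr probe set, near background, gave 0.69 (adjusted p over all probe sets 0.49) and 0.92 (0.346) and was not called. Foxp3 rose by 4.23 in LG_eTreg and was the single call between the effectors, at 3.94. A second gene of the list was called between them without LG_naive 1 or LG_naive 3.

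The genes with the pattern most like each of 3 factors were taken by Pearson r over the 11 arrays, among 2697 genes that varied by at least 2 log2 units. The arrays share groups, so r follows mainly the steps between groups and is given as a description. Closest to Ifng were Gdpd5 (0.983), Ccn4 (0.983), Zc3h12d (0.982), Zan (0.981) and Myo3b (0.980), each high on the effector arrays and far lower on the naive and spleen arrays. Tbx21 itself was in place 248 for Ifng, with r of 0.859. Closest to Tbx21 were Cenpk (0.974), Gcnt1 (0.973), Cst7 (0.971), Top2a (0.970) and Il2rb (0.969), and Cxcr3 was in place 10 (0.957). These were intermediate on the spleen arrays, as Tbx21 was. Closest to Eomes were Ugt1a6a (0.930), Cdc14b (0.916), Pira1 (0.916), Glipr2 (0.916) and Phka1 (0.910), which are highest on the single Spl_CD8 array, so that r rests largely on it.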

How the data were processed

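RNA from 11 samples was hybridised to perfect-match probe set arrays, 1 per sample. The authors deposited log2 signals. Per the submitters' processing notes the tools were RMA and Partek, with versions not given in the sources used here. Log2 is inferred as the scale RMA gives. Per the labels, RNA was amplified and biotin-labelled before hybridisation, and 1 sample with lower RNA integrity is not tied to a group. The table lists 45141 probe sets. After dropping 104 controls, 28898 carried 1 gene symbol, 551 more than 1, and 15588 none in the annotation given. Each of 17097 genes was represented by its brightest probe set, by mean over the 9 gland arrays, without a filter.

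Tests used limma 3.58.1 (R 4.3.3): group means over the 9 gland arrays, 6 residual degrees of freedom, empirical Bayes, two-sided, with Benjamini-Hochberg adjustment over the 17097 genes of a comparison and a threshold of 0.05. The self-made tables used pandas 2.3.3 and numpy 2.4.6, and the fit was tested on simulated data. The small number of arrays limits precision. Spleen arrays were described without a test. The 20 alternatives changed the probe set rule, dim-gene filter, scaling, moderation, arrays in the fit, replicate number as a block, values at background, and left out each gland array in turn. The 10 genes, the lists and the tests were chosen with earlier results of these data known. List genes without a probe set of their symbol are not reported here. Genes named from the lists were the 3 called with the largest difference in each comparison plus a fixed set of receptor, kinase and lineage genes; the other list genes named (Lta, Csf2, Fasl, Tnf, Ccl4, Ccl5 and Klrg1) and the marker genes were added after their values were seen. The 5 genes most like Ifng, Tbx21 and Eomes were taken among genes above the background limit on at least 3 arrays, leaving out clone names.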

Additional observations from a re-analysis of the deposited data

Results flagged for a closer look

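For 3 genes the difference from LG_naive was not the same in the effector subsets, by the limma test of LG_eTreg minus LG_eTconv over all genes. Runx3 differed by 1.17 (adjusted p 0.00157): it fell in LG_eTconv, on 3 of 3 arrays, and overlapped LG_naive in LG_eTreg. Stat4 differed by -0.96 (adjusted p 0.00114): it rose in LG_eTconv, on 3 of 3 arrays, and overlapped LG_naive in LG_eTreg. Gbp3, a guanylate-binding protein gene of the interferon response, differed by 1.79 (adjusted p 0.000468), with 3 of 3 LG_eTreg arrays above and 3 of 3 LG_eTconv arrays under the LG_naive range.

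Among the other genes whose values are given, those named below also differed between the effector subsets by that test, each with no overlap between the arrays. Higher in LG_eTreg were Foxp3 (3.94), Ifngr1 (3.81), Havcr2 (3.15), Hopx (2.79), Cxcr6 (2.19), Irf8 (1.71), Gbp7 (0.81), Irf1 (0.56), Ccl5 (2.91), Ccl4 (1.31) and the epithelial markers Epcam (3.06) and Krt18 (1.42). Gzma was higher too (2.76), with LG_eTconv near background (mean 0.81). Klrg1 was 2.91 higher as fitted, but with every LG_eTconv array at or below background the data show only at least 4.62-fold. Lower in LG_eTreg were Il2 (-5.07) and Csf2 (-1.47), both near background there. Also lower were Xcl1 (-3.67), Lta (-2.13), Cd8a (-1.31), Fasl (-0.997), Tnf (-0.78), Bhlhe40 (-0.75), Cd4 (-0.55) and Jak2 (-0.44). Zeb2 was lower at -1.36 as fitted, but with every LG_eTreg array at or below background the data show only at least 1.75-fold. The calls on Irf1, Zeb2, Bhlhe40 and Jak2 were lost under 2, 9, 8 and 13 of the 20 alternative settings. With 1 gland array left out, the 11 calls on the effector molecule list fell to 8 to 10. Those lost were among Lta, Csf2, Tnf, Fasl, Ccl4, Ccl5 and Klrg1, for which settings were not counted gene by gene. Calls on Cd4, Cd8a, Gzma, Epcam and Krt18 were not followed over the settings. The other probe sets of Irf8 and Zeb2 were not called in this comparison.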

How the results depend on the processing

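Of the 17 calls on the 10 genes, 16 held under all 20 alternatives, and Eomes in LG_eTconv did not. Of 597 values of the 10 genes under alternatives, 572 kept direction and side of the threshold. The count of genes lower in LG_eTreg than in LG_naive was 1 under the intensity trend, at the background limit and without dim genes, and that lower than in LG_eTconv was 2 under the intensity trend and quantile normalization. Leaving out 1 array at a time, genes lower in LG_eTconv than LG_naive numbered 1 to 2, lower in LG_eTreg than LG_naive 0 to 1, and lower in LG_eTreg than LG_eTconv 1 to 2. Between the effectors, calls on the signalling list were then 3 to 6, on the response list 4 to 7 and on the list of other lineage factors 1 to 2. Calls on the effector molecule list were then 8 to 10, against 11 with all gland arrays. Calls on the signalling list were 2 without the 3 arrays that stand apart in control probe sets. Calls on the lineage list were 3 under the intensity trend and 2 with the mean of probe sets, with only the arrays compared, with quantile normalization, at the background limit, without dim genes and without those 3 arrays.

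The labels do not say that replicate numbers mark the same mice, and the main fit did not use them. Between LG_naive and the effectors, deviations of same-numbered arrays correlated at -0.10 to 0.14, and of differently numbered arrays at -0.18 to 0.19. Between the effector subsets, same-numbered arrays correlated at 0.08 to 0.28, all above the differently numbered ones, at -0.23 to 0.02. Whether the effector arrays were paired was not tested further. With the replicate number as a block, calls between the effectors were 3 on the signalling list and 2 on the lineage list, and no call on the 10 genes changed.

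Some differences changed sign, with no call on either side. In LG_eTreg minus LG_naive, centring arrays gave 0.009 for Runx3, 0.0133 for Cbfb and 0.0303 for Il2, quantile normalization -0.0314 for Stat4 and 0.0477 for Il2, and the mean of probe sets 0.11 for Runx3. Between the effectors, the mean of probe sets gave 0.28 for Il18rap and 0.0533 for Ifngr2. Values at the background limit gave -0.17 and -0.0672 for Il12rb2. Without the 3 arrays, LG_eTreg minus LG_naive was 0.0215 for Runx3, 0.19 for Il2 and -0.73 for Cxcl9, LG_eTconv minus LG_naive was -0.265 for Foxp3, and Cxcl10 was -0.018 between the effectors. Leaving out 1 array at a time, the range was -0.25 to 0.79 for Foxp3 in LG_eTconv minus LG_naive. In LG_eTreg minus LG_naive it was -0.12 to 0.0444 for Runx3, -0.0413 to 0.0894 for Stat4, -0.0525 to 0.0022 for Cbfb, -0.40 to 0.45 for Il2 and -0.38 to 0.65 for Cxcl9. Between the effectors it was -0.0313 to 0.57 for Eomes and -0.26 to 0.0667 for Ifngr2. The causes were not tested. Values near the background limit, as for Il12rb2 and Eomes, limit what these arrays can show.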
